A study of Mus musculus with 2 samples.

Results

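Chemokine receptors are receptors on the cell surface that couple to inhibitory G proteins and steer a cell along a gradient of chemokine, its ligand. Which receptors a T cell carries decides which tissues it can enter, and the set differs between helper T cell lineages. Cxcr3 and Cxcr6 are known from Th1 cells, Ccr4 and Ccr8 from Th2 and regulatory T cells, and Cxcr5 from follicular helper T cells and B cells. Cxcr4 is carried by most leukocytes, and Cxcr2, Ccr2 and Cx3cr1 are best known from neutrophils, inflammatory monocytes and patrolling monocytes.

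The 9 genes Cxcr2, Cxcr3, Cxcr4, Cxcr5, Cxcr6, Ccr2, Ccr4, Ccr8 and Cx3cr1 were taken from 24421 gene symbols by name. All 9 were found in both tables. Poly(A)-selected RNA was sequenced from Th1 cells of Chi3l1+/+ (WT) and Chi3l1-/- (Chi3l1 KO) mice on the C57BL/6J background, with 1 sample of each genotype. The mice of the study were 6 to 8 weeks old, the knockout was not limited to T cells, and the number of mice behind each sample is not given. Naïve CD4 T cells, isolated as CD4+CD25-CD62L+ cells with magnetic beads or by cell sorting, steps that would remove most other cell types, were activated with antibodies to CD3 and CD28 and skewed with IL-12, IL-2 and an antibody to IL-4 for 3 or 5 days, and which of the durations applied to the sequenced cells is not given. The study asked how loss of Chi3l1, a chitinase-like protein without enzymatic activity, alters gene expression in Th1 cells.

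With 1 sample per genotype there is no spread between replicates, no test and no p-value for any difference given here. The deposited value of a gene was taken to be log2 of its normalized read count plus 1, a unit inferred from the values. Read counts were rebuilt from these values and came to 70711509 in the library labelled WT and 62991545 in the library labelled Chi3l1 KO. The intervals given with the values cover read counting only, and fewer cells carrying a transcript and less transcript per cell cannot be told apart. Chi3l1 itself, listed as Chil1 on chromosome 1 (134182176 to 134190181, GRCm38), had 1 read in the library labelled WT and 103 reads in the library labelled Chi3l1 KO. The targeted gene therefore goes against the labels, although the tables do not show which exons the reads came from, and every direction below is that of the labels as given. The T cell genes Lck (16.49 and 16.48) and Cd3e (14.94 and 14.86) were high in both libraries. Tbx21, which encodes the Th1 factor T-bet, was at 13.98 and 13.71, Ifng at 11.72 and 13.04, and Il12rb2 at 13.90 and 14.35, while the Th17 cytokine Il17a was listed at 0 in both. Gata3 of Th2 cells (11.82 and 11.18) and Foxp3 of regulatory T cells (10.94 and 11.66) were also well above 0.

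The largest differences among the receptors, in opposite directions, were those of Cxcr2 and Cxcr3, and the 250 bases before the RefSeq start of these genes (GRCm38.p6, 5′ to 3′ on the gene's strand) are shown for that reason. Cxcr2 lies on the plus strand with this window at chr1:74153744-74153993, and Cxcr3 on the minus strand with the window at chrX:101734148-101734397. Capitals mark the E-box letters CANNTG, the general site of Twist1 and other basic helix-loop-helix factors, on either strand.
Cxcr2: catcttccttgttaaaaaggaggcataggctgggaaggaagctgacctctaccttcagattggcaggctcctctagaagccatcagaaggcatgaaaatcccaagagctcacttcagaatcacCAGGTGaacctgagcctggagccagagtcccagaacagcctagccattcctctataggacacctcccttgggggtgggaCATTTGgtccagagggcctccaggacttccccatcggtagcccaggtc
Cxcr3: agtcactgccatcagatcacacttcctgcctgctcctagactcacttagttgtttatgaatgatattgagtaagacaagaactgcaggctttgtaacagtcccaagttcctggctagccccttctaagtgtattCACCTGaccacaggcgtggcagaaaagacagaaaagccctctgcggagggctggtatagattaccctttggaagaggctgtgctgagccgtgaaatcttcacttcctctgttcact
The window of Cxcr2 holds 2 such matches, starting 127 and 48 bases before the start, and that of Cxcr3 holds 1, starting 116 bases before it. Of 32851 RefSeq promoter windows of this length, 66.2% hold at least 1 match. Neither window holds the T-box letters AGGTGTGA, which are in 1.12% of all windows, or the STAT letters TTCNNNGAA, which are in 7.02%, on either strand. A match is a run of letters and not a measured binding site. The table matched 8 of the 9 receptors, with no entry for Cxcr5.

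In the deposited values, 3 of the 9 receptors (Cxcr2, Cxcr5 and Ccr2) were at least 2-fold higher and 1 (Cxcr3) was at least 2-fold lower in the library labelled Chi3l1 KO. Over all 24421 genes, 4.70% were at least 2-fold higher and 5.81% at least 2-fold lower, together 10.5%. This share depends strongly on the level. Of the 3027 genes whose higher log2 value lay between 8 and 10, 1.78% were at least 2-fold higher and 2.51% at least 2-fold lower. Cxcr4, Cxcr5 and Ccr8 had both values in this range, and of these 1 (Cxcr5) was past 2-fold. Cxcr2 and Cxcr3 reach it only in the library where each was the higher, so these shares are no background for them. Of the 1779 genes whose higher value lay between 4 and 6, 14.4% were at least 2-fold higher and 19.3% at least 2-fold lower. Ccr2 lies between 2 and 4, where 26.7% of 1574 genes were at least 2-fold higher and 33.0% at least 2-fold lower, so that its place past 2-fold is close to the background of weakly expressed genes. The median log2 difference over the 9 receptors was 0.62, beside -0.003 over the 14666 genes above 0 in both libraries, and 7 receptors had a difference above 0 and 2 below 0.

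**Figure D1:**
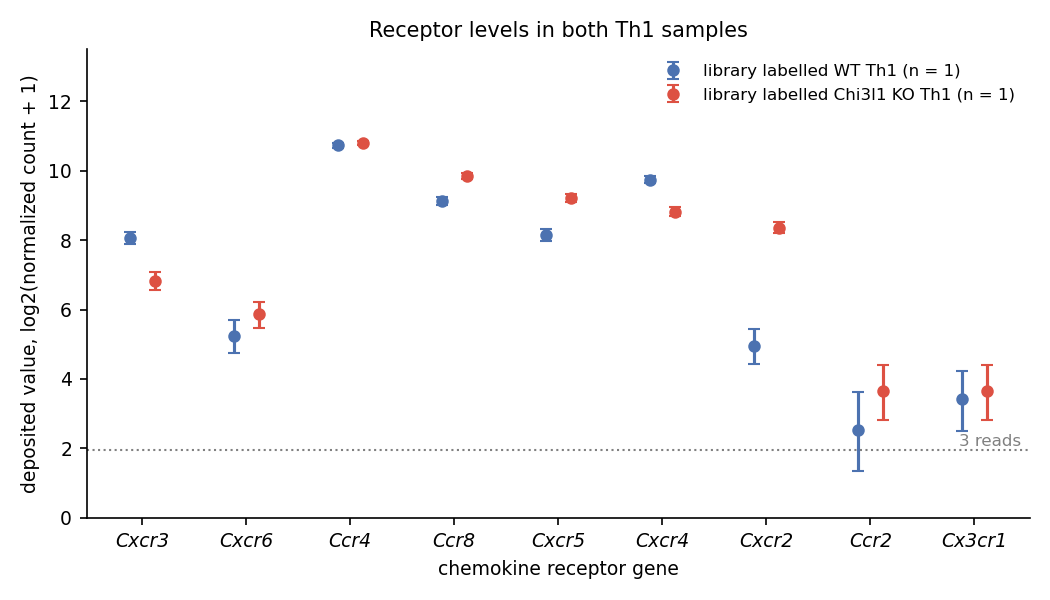
Deposited value (taken to be log2 of the normalized count plus 1) of each receptor in the library labelled WT Th1 (blue) and the library labelled Chi3l1 KO Th1 (red), 1 sample each, with 95% exact Poisson intervals that cover read counting only. Cxcr2 sits at 4.96 in the former and 8.36 in the latter, while the points of Ccr4 sit at 10.74 and 10.80, and Ccr2 and Cx3cr1 lie close to the dotted line of 3 reads.

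Cxcr2 binds the neutrophil-attracting chemokines Cxcl1, Cxcl2, Cxcl3, Cxcl5 and Ppbp. Its deposited log2 value was 4.96 in the library labelled WT and 8.36 in the library labelled Chi3l1 KO, from 31 and 339 reads. The 95% exact Poisson interval was 21.1 to 44.0 reads in the former and 304 to 377 in the latter, so that the intervals were far apart. The normalized count was 10.9-fold higher in the library labelled Chi3l1 KO, a log2 difference of 3.41 in the deposited values with an exact binomial 95% interval of 2.92 to 4.03. This was rank 76 from the top of all 24421 genes by difference, and with the labels exchanged it would be the same rank among the decreases. Cxcr2 (chromosome 1, 74153989 to 74161246, plus strand, 2 exons) shares no stretch of 100 bases, the read length, with a transcript of another gene. Its neighbour Cxcr1, a receptor for some of the same chemokines that lies 30.5 kb away, had 162 and 231 reads and a log2 difference of 0.51 (interval 0.21 to 0.81).

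Cxcr2 is a textbook neutrophil receptor, and the neutrophil markers were therefore set beside it. Of the 10 listed, 9 were in the tables, and their summed normalized count was 104 in the library labelled WT and 15.4 in the library labelled Chi3l1 KO. None was 2-fold higher in the latter and 6 were at least 2-fold lower, beside 19.3% of all genes between 4 and 6, where 4 of these 6 lie. S100a8 lies between 2 and 4, where 33.0% were at least 2-fold lower, and S100a9 lies between 0 and 2, where 269 of 9572 genes were. Ngp, which encodes a granule protein, had 23 and 0 reads, the protease gene Elane had 20 and 0, the myeloperoxidase gene Mpo had 32 and 5, and the G-CSF receptor gene Csf3r had 23 and 11. S100a8 had 5 and 0 reads and S100a9 had 3 and 0, too few to tell the libraries apart, and Camp was listed at 0 in both. The part of neutrophil transcripts in the value of Cxcr2 was not tested. Of the 5 ligands of Cxcr2, Cxcl1, Cxcl5 and Ppbp were listed at 0 in both libraries. Cxcl2 had 43 and 11 reads (log2 difference -1.88, interval -3.07 to -0.99) and Cxcl3 had 54 and 3 reads (-3.79, interval -6.49 to -2.55). The receptor and its ligands with reads thus differed in opposite directions.

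Cxcr3 is the receptor for Cxcl9, Cxcl10 and Cxcl11, chemokines induced by interferon gamma, and is a known mark of Th1 cells. Its log2 value was 8.05 in the library labelled WT and 6.82 in the library labelled Chi3l1 KO, from 274 and 116 reads. The Poisson intervals, 243 to 308 and 95.9 to 139 reads, did not overlap. The normalized count was 2.36-fold higher in the library labelled WT, a log2 difference of -1.23 with an interval of -1.57 to -0.92. Cxcr3 (chromosome X, 101731535 to 101734269, minus strand) has 1 annotated transcript and shares no stretch of 100 bases with another gene.

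The ligands of Cxcr3 had differences of the other sign. Cxcl9 had 129 and 245 reads, a log2 difference of 0.92 with an interval of 0.61 to 1.24. Cxcl10 had 284 and 437 reads, with a difference of 0.62 (interval 0.40 to 0.84). Cxcl11 had 17 and 23 reads, with a difference of 0.41 whose interval for counting error, -0.53 to 1.43, holds 0. Ifng had a log2 difference of 1.32 and Tbx21, the gene of a factor known to act on Cxcr3, one of -0.27. Their part in the values of Cxcr3 and its ligands was not tested.

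Cxcr6, the receptor for Cxcl16, is carried by Th1 and tissue-resident T cells. It had a log2 value of 5.24 in the library labelled WT and 5.86 in the library labelled Chi3l1 KO, from 38 and 59 reads. These levels are low, and the Poisson intervals of 26.9 to 52.2 and 44.9 to 76.1 reads overlapped. The log2 difference was 0.62, and the interval of the ratio, 0.02 to 1.26, only just left out 0. Its ligand Cxcl16 had 27 and 9 reads, with a log2 difference of -1.49 (interval -2.86 to -0.46). The pair known from Th1 cells, Cxcr3 and Cxcr6, therefore had differences of opposite sign, one 2-fold or more and one not.

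**Figure D2:**
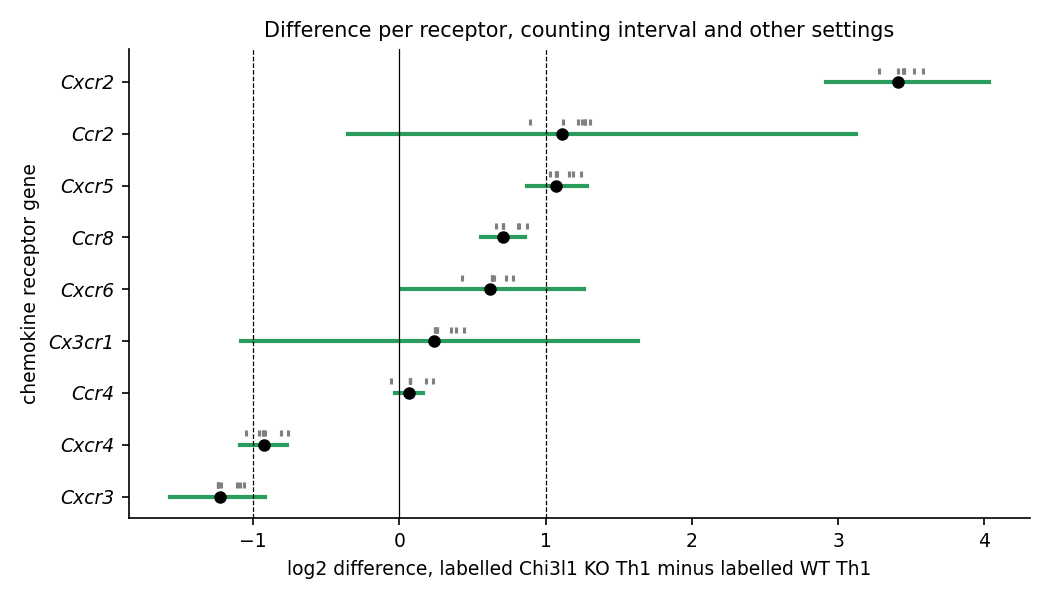
Log2 difference of each receptor, library labelled Chi3l1 KO Th1 minus library labelled WT Th1 (black points, deposited values), with the exact binomial 95% interval of the ratio of normalized counts (green, read counting only) and the values under the other settings tried (grey ticks). The point of Cxcr2 lies at 3.41, apart from the other points, though its interval (2.92 to 4.03) overlaps the wide one of Ccr2 (-0.35 to 3.12). Cxcr3 is the lowest at -1.23, and the intervals of Ccr2, Cx3cr1 and Ccr4 hold 0.

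Ccr4 and Ccr8 are receptors of Th2 and regulatory T cells, and Ccr4 had the most reads of the 9 receptors in both libraries. Ccr4, which binds Ccl17 and Ccl22, had a log2 value of 10.74 in the library labelled WT and 10.80 in the library labelled Chi3l1 KO, from 1761 and 1845 reads. The levels were nearly alike, with a log2 difference of 0.07 and an interval of -0.03 to 0.16, which leaves out any difference of 2-fold as far as read counting goes. Its ligand Ccl22 had 2173 and 1942 reads, the most of the 19 ligands listed, with a log2 difference of -0.16. Ccl17 had 9 reads in the library labelled WT and was listed at 0 in the library labelled Chi3l1 KO.

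Ccr8, which binds Ccl1 and Ccl8, had a log2 value of 9.14 in the library labelled WT and 9.85 in the library labelled Chi3l1 KO, from 582 and 951 reads. The Poisson intervals, 536 to 631 and 892 to 1013 reads, did not overlap. The log2 difference was 0.71 with an interval of 0.56 to 0.86, under 2-fold. Among the genes whose higher value lay in the same range of 8 to 10, 6.11% were higher by as much. Foxp3, known from the same regulatory T cells, had a difference of 0.72 (interval 0.64 to 0.80) and the Th2 factor gene Gata3 one of -0.64 (interval -0.71 to -0.56), and their part in the value of Ccr8 was not tested. The ligand gene Ccl8 was listed at 0 in both libraries and Ccl1 had at most 2 reads.

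Cxcr5 is the receptor for Cxcl13, which draws follicular helper T cells and B cells into follicles. Its log2 value was 8.15 in the library labelled WT and 9.22 in the library labelled Chi3l1 KO, from 292 and 615 reads. The intervals of 259 to 327 and 567 to 666 reads did not overlap. The normalized count was 2.11-fold higher in the library labelled Chi3l1 KO, a log2 difference of 1.07 with an interval of 0.87 to 1.28, and 1.35% of the genes at a similar level, Cxcr5 included, were higher by as much. Markers of B cells, which also carry Cxcr5, differed in the same direction. The 4 B cell markers used were detected in both libraries and higher in the library labelled Chi3l1 KO, none of them by 2-fold, and their summed normalized count was 670 and 1061. Cd79a and Cd79b, which encode the signalling chains of the B cell receptor, had 267 and 476 reads (log2 difference 0.83, interval 0.61 to 1.05) and 269 and 324 reads (0.27, interval 0.03 to 0.51). Bcl6, the factor of follicular helper T cells, had a difference of -0.21. The part of B cell transcripts in the value of Cxcr5 was not tested.

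The gene of Cxcr5 (chromosome 9, 44511787 to 44561877, minus strand) ends in 110 bases that also belong to exons of Bcl9l on the other strand. Whether the counting used the strand is not given, and 0.400% of the 100-base windows of the Cxcr5 transcript are shared with Bcl9l. Bcl9l had 2325 reads in the library labelled WT and 1241 in the library labelled Chi3l1 KO, a difference in the other direction.

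Cxcr4, the receptor for Cxcl12 that holds lymphocytes in bone marrow and lymphoid tissue, was beside Cxcr3 the other receptor with a difference below 0. Its log2 value was 9.75 in the library labelled WT and 8.82 in the library labelled Chi3l1 KO, from 887 and 466 reads. The intervals, 830 to 947 and 425 to 510 reads, did not overlap. The normalized count was 1.91-fold higher in the library labelled WT, a log2 difference of -0.93 with an interval of -1.09 to -0.77 on both sides of 2-fold. At a similar level, 3.30% of genes were lower by as much. Cxcr4 (chromosome 1, 128588199 to 128592293) is the only one of the 9 near the targeted gene, 5.59 Mb from Chil1, while Cxcr2 on the same chromosome is 60.0 Mb away. The part of the targeted locus in the value of Cxcr4 was not tested. Cxcl12 had at most 1 read, and the scavenger receptor of this ligand, Ackr3, was listed at 0 in both libraries.

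Ccr2 and Cx3cr1, receptors of monocytes and of effector T cells, were close to the limit of detection. Ccr2, which binds Ccl2, Ccl7 and Ccl12, had a log2 value of 2.54 in the library labelled WT and 3.65 in the library labelled Chi3l1 KO, from 5 and 12 reads. Its log2 difference of 1.12 is past 2-fold, but the interval of the ratio was -0.35 to 3.12, and no difference was detectable at this depth. Of the genes at a similar level, 24.0% were higher by as much. All 3 of its ligands were listed at 0 in both libraries, and 0.942% of the 100-base windows of its transcript are shared with another gene.

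Cx3cr1, the receptor for the membrane-bound chemokine Cx3cl1 and a mark of cytotoxic effector T cells, had a log2 value of 3.41 in the library labelled WT and 3.65 in the library labelled Chi3l1 KO, from 10 and 12 reads. The log2 difference was 0.24 with an interval of -1.08 to 1.63, and was not detectable at this depth. Cx3cl1 had 6 and 3 reads. Of 8 monocyte and macrophage markers, none was at least 2-fold higher and 2, Lyz2 and Cd14, were at least 2-fold lower in the library labelled Chi3l1 KO. The 8 markers had a summed normalized count of 695 and 557. Lyz2 lies between 4 and 6, where 19.3% of genes were at least 2-fold lower, and Cd14 between 2 and 4, where 33.0% were. Lyz2, which encodes lysozyme, had 34 and 2 reads, Cd14 had 12 and 0, and Itgam had 163 and 93. Csf1r, the receptor for M-CSF, had 97 and 174, the lysosomal gene Cd68 had 403 and 300, and Adgre1 of mature macrophages was listed at 0 in both.

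**Figure D3:**
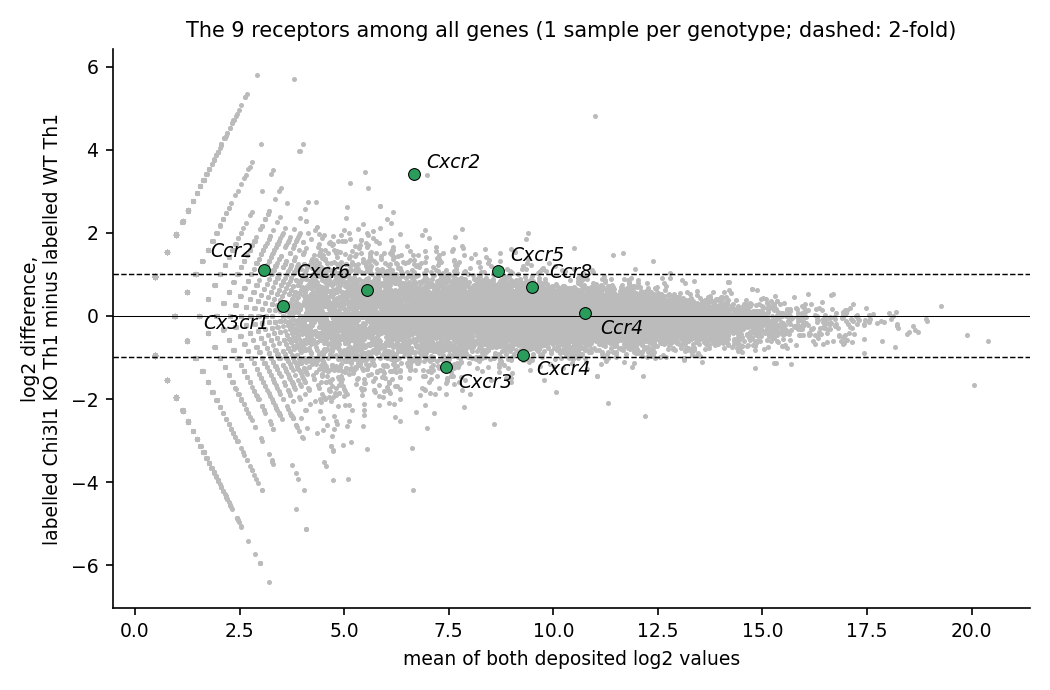
Log2 difference, library labelled Chi3l1 KO Th1 minus library labelled WT Th1, against the mean of the deposited log2 values for every gene above 0 in a sample (grey), with the 9 receptors in green and dashed lines at 2-fold. Cxcr2 lies at 3.41 with few genes near it, Cxcr3, Cxcr4 and Cxcr5 lie at the edge of the cloud, and Ccr2 lies within the wide spread of weakly expressed genes.

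Within each library, receptors were compared as the normalized count per kilobase of the longest annotated transcript. In the library labelled WT the order was Ccr4 at 608, Ccr8 at 480, Cxcr4 at 476, Cxcr3 at 153, Cxcr5 at 99.2, Cxcr6 at 19.3, Cxcr2 at 9.85, Cx3cr1 at 2.15 and Ccr2 at 0.839 normalized counts per kilobase, a span of 725-fold. Neighbours whose counting intervals overlapped, and which were not told apart, were Ccr8 and Cxcr4, Cxcr6 and Cxcr2, and Cx3cr1 and Ccr2. The receptors known from Th2 and regulatory T cells were thus above those known from Th1 cells, with Ccr4 3.97-fold above Cxcr3 per kilobase.

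In the library labelled Chi3l1 KO the order was Ccr8 at 782, Ccr4 at 636, Cxcr4 at 249, Cxcr5 at 209, Cxcr2 at 108, Cxcr3 at 64.9, Cxcr6 at 29.9, Cx3cr1 at 2.58 and Ccr2 at 2.02 normalized counts per kilobase, a span of 387-fold. Only Cx3cr1 and Ccr2 had overlapping intervals as neighbours. Ccr8 stood above Ccr4 here and below it in the other library, in both cases with intervals that did not overlap, but by the coding length Ccr4 was the higher in both libraries. Cxcr2 and Cxcr3 changed places by either length. Cxcr3 was 15.5-fold above Cxcr2 per kilobase of transcript in the library labelled WT, while in the library labelled Chi3l1 KO Cxcr2 was 1.66-fold above Cxcr3. Of the summed level per kilobase of the 9 receptors, Cxcr2 took 0.533% in the library labelled WT and 5.18% in the library labelled Chi3l1 KO, Cxcr3 took 8.28% and 3.12%, Ccr4 took 32.9% and 30.5%, and Ccr8 took 26.0% and 37.5%.

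The lengths behind these levels ranged from 1175 bases for Ccr8 to 5728 bases for Ccr2, while the coding part was between 1059 and 1122 bases in all 9. With the coding length in place of the transcript, 5 of the 9 receptors kept their rank in each library. Ccr4 was then the highest in both libraries, Cxcr4 passed Ccr8 and Cxcr5 passed Cxcr3 in the library labelled WT, and Cxcr5 passed Cxcr4 in the library labelled Chi3l1 KO. Cxcr6, Cxcr2, Cx3cr1 and Ccr2 kept their ranks in both libraries.

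**Figure D4:**
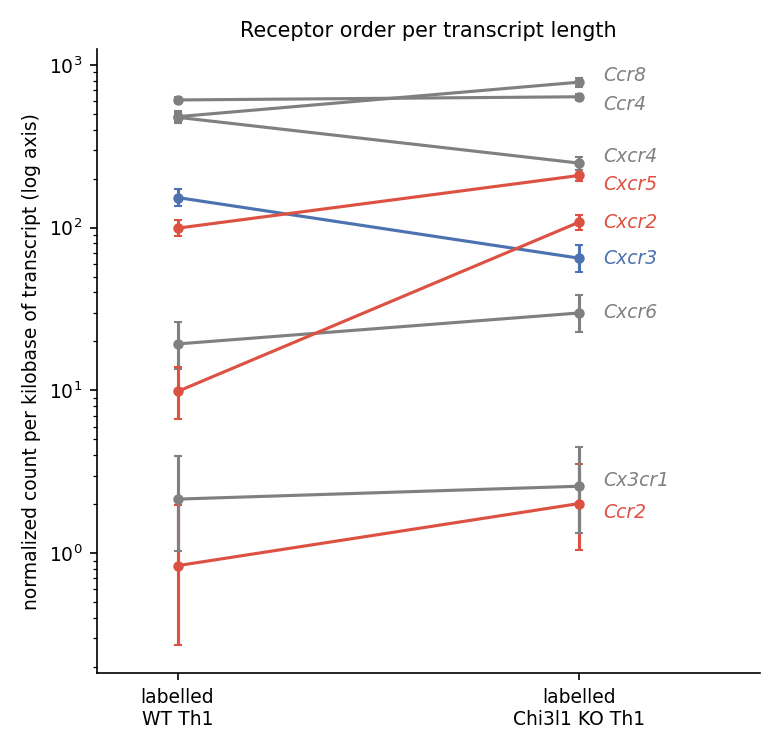
Normalized count per kilobase of the longest transcript (log axis) of each receptor in the library labelled WT Th1 and the library labelled Chi3l1 KO Th1, with 95% exact Poisson intervals for read counting. Red lines mark receptors at least 2-fold higher in the deposited values, blue at least 2-fold lower and grey the rest, and the lines of Cxcr2 (9.85 to 108) and Cxcr3 (153 to 64.9) cross.

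By position, 6 of the 9 receptor genes lie on chromosome 9, 2 on chromosome 1 and 1 on chromosome X. Receptors of the list that lie close together on chromosome 9 could differ in level. Ccr8 and Cx3cr1 are 22.2 kb apart and differed from 782 to 2.58 normalized counts per kilobase in the library labelled Chi3l1 KO. Cxcr6 and Ccr2 are 290 kb apart, with 29.9 and 2.02 in that library. Between them lie Xcr1, Ccr1 and Ccr3, which were also low, with 0 and 5, 15 and 6, and 0 and 2 reads in the libraries labelled WT and Chi3l1 KO. The annotated span of Cxcr6 crosses that of Fyco1 without shared exon bases. The long annotated span of Cx3cr1 takes in Wdr48, Gorasp1, Ttc21a, Csrnp1, Xirp1, Gm49427, Gm47043, 1700019L13Rik and the antisense gene Gm33858, and of these Gm33858 shares 78 exon bases with it.

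Other receptors of the family were taken from a list of 8 that holds Cxcr1, Ccr1, Ccr3, Ccr6, Ccr7, Ccr9, Ccr10 and Xcr1. Of these, 3 were at least 2-fold higher and 2 at least 2-fold lower in the library labelled Chi3l1 KO, beside 10.5% of all genes in either direction, and 4 of these 5 had at most 15 reads. Of those, Xcr1 and Ccr1 lie between 2 and 4, where 26.7% of genes were at least 2-fold higher and 33.0% at least 2-fold lower, and Ccr3 and Ccr10 had at most 2 reads. The exception was Ccr6, the receptor for Ccl20 known from Th17 cells and B cells, with 42 and 124 reads (log2 difference 1.54, interval 1.04 to 2.10). Ccr7, which guides naïve and central memory T cells to lymph nodes, had log2 values of 16.73 and 16.56, from 112060 and 99706 reads, far above any of the 9 receptors. Its log2 difference was -0.17. Among 5 atypical receptors, which bind ligands without G protein signalling, none was past 2-fold. Ccrl2 was the highest at 9.19 and 9.09, and Ackr2 and Ackr3 were listed at 0 in both libraries.

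Of the 19 ligands of the 9 receptors, 7 were listed at 0 in both libraries, 1 was at least 2-fold higher and 4 were at least 2-fold lower in the library labelled Chi3l1 KO, which is 5 of 19 beside 10.5% of all genes. The 4 lower ones were Cxcl2, Cxcl3, Cxcl16 and Ccl17, and the higher one was Ccl1 with at most 2 reads. At these levels the background is higher than over all genes. Cxcl2, Cxcl3 and Cxcl16 lie between 4 and 6, where 19.3% of genes were at least 2-fold lower. Ccl17 lies between 2 and 4, where 33.0% were. Of the 23 genes that carry or end the receptor signal, none was past 2-fold. In this list 20 had a difference below 0 and 3 above 0, with a median of -0.30 and a range of -0.81 to 0.57. Most of these genes have a higher value above 12. Of the 2848 genes at that level 6 were at least 2-fold higher and 16 at least 2-fold lower, with a median difference of -0.10. Rac2, a GTPase of cell movement, had the largest level at 16.52 and 15.91, followed by the receptor kinase gene Grk6 at 16.09 and 15.77. Gnai3 (0.57) and Rgs1 (0.52), which encode an inhibitory G protein subunit and a protein that ends its signal, were 2 of the 3 above 0.

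**Figure D5:**
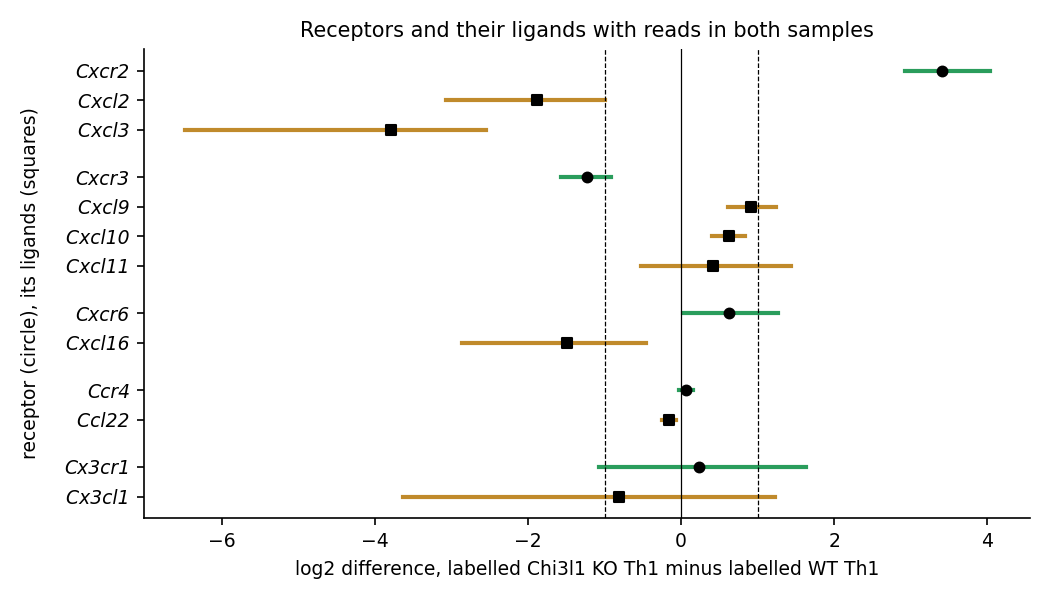
Log2 difference, library labelled Chi3l1 KO Th1 minus library labelled WT Th1, of receptors (circles, green intervals) and of their ligands with reads in both libraries (squares, brown intervals), with exact binomial 95% intervals for read counting and dashed lines at 2-fold. Cxcr2 at 3.41 stands against Cxcl2 at -1.88 and Cxcl3 at -3.79, and Cxcr3 at -1.23 against Cxcl9 at 0.92 and Cxcl10 at 0.62.

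Markers of other cell types, which the isolation of naïve CD4 T cells would largely remove, also differed between the libraries. Markers of mast cells, basophils and eosinophils had a summed normalized count of 174 in the library labelled WT and 27.0 in the library labelled Chi3l1 KO. Of these, 6 of 7 were at least 2-fold lower, among them Mcpt8 (85 and 14 reads), Epx (48 and 9) and Prg2 (21 and 0), while 5.81% of all genes were. Epx and Prg2 lie between 4 and 6, where 19.3% of genes were at least 2-fold lower. Cpa3, Fcer1a and Siglecf lie between 2 and 4, where 33.0% were. Mcpt8 lies between 6 and 8, where 170 of 2120 genes were. Of 6 dendritic cell markers, Flt3 (18 and 68 reads) and Zbtb46 (14 and 48) were at least 2-fold higher and Itgax (44 and 5) was at least 2-fold lower. Clec9a, Siglech and Cd209a were listed at 0 in both. Over all genes, 10.5% were past 2-fold in either direction. Zbtb46 and Itgax lie between 4 and 6, where 14.4% of genes were at least 2-fold higher and 19.3% at least 2-fold lower. Flt3 lies between 6 and 8, where 140 of 2120 genes were at least 2-fold higher and 170 at least 2-fold lower. Natural killer cell markers summed to 2073 and 2703, mostly from Eomes (2113 and 2742 reads), which Th1 cells can also express, while Klra8 had 11 and 39 reads, Ncr1 had 0 and 6, Klrb1c had 17 and 9, and Klra4 was listed at 0 in both. Cd8a had 289 and 438 reads and Cd8b1 550 and 397. The part of these cells in the receptor values was not tested.

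The genes nearest to Cxcr2 by their pair of log2 values, over these 2 samples only, were Rn4.5s (5.28 and 8.67), Gm10406 (4.91 and 7.41) and Gm3636 (5.89 and 7.96), at distances from 0.444 to 1.015 in log2 units. Those nearest to Cxcr3 were Nos2 (8.07 and 6.81), Spp1 (8.06 and 6.88) and Ptges2 (8.03 and 6.93), at distances from 0.020 to 0.109. With 2 samples such likeness says only that level and difference were close.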

How the data were processed

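Total RNA from 1 sample of WT and 1 of Chi3l1 KO Th1 cells was made into libraries with the SENSE mRNA-Seq kit and sequenced from both ends. The authors mapped the reads with TopHat to mm10 (per the submitters' processing notes) and used edgeR on counts of unique and multiple alignments in R 3.2.2, and their methods also describe cufflinks and a global normalization. The annotation and the versions of TopHat and edgeR are not given in the sources used here. In the deposited tables each gene has 1 log2 value, taken to be that of the normalized count with 1 added. The unit was inferred from the values: with the log undone, low values (up to 30) fall within 0.2 of whole multiples of a step of 0.968 in WT and 0.967 in Chi3l1 KO for 100% of genes. Values were divided by this step and rounded to rebuild reads. On this scale 3 reads stand at 1.965 and 1.964.

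Differences are the deposited value of the library labelled Chi3l1 KO minus that of the library labelled WT, counted from 2-fold. With 1 sample each no test was run. Exact Poisson (reads) and Clopper-Pearson binomial (ratio of reads, without pseudocount) 95% intervals cover counting error only, and reads are not independent molecules. The members and lists were chosen with earlier results of these data known. Named are the members, Chil1, genes overlapping a member, the 3 genes nearest to Cxcr2 and to Cxcr3, and from each list the genes past 2-fold with at least 20 reads and the 2 highest. Other genes were named after their values were seen, as was the list of helper lineage genes. Of the genes in the marker lists, 1 is not reported here and was left out of the counts and sums. Lengths, GC content and coordinates came from GENCODE M21 (GRCm38, the assembly of mm10), in which 96.0% of the 15541 symbols at 1 or above were found. Promoter sequences came from RefSeq. The alternatives were pseudocounts of 0.1 and none, median-ratio, quantile and Actb scaling, removal of the trend with GC content (20 bins over genes of at least 8), other thresholds, a floor of 4 and other lengths, and, added after seeing the data, scaling to equal totals and a count of receptors whose interval leaves out 0. The scripts were tested on simulated data. Intervals were computed in scipy 1.17.1, tables in pandas 2.3.3 with numpy 2.4.6 and plots in matplotlib 3.10.9, all under Python 3.11.15.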

Additional observations from a re-analysis of the deposited data

How the results depend on the processing

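No paired analysis was possible because each genotype has 1 sample, and for the same reason no replicate could be left out. Over the pseudocounts, the scalings, the removal of the GC trend and the scaling to equal totals, 8 of the 9 receptors kept the sign of their log2 difference. The exception was Ccr4, near 0 in the deposited values, which reversed to -0.06 with the GC trend removed. Cxcr2 ranged from 3.28 to 3.58, Cxcr3 from -1.24 to -1.06 and Cxcr5 from 1.03 to 1.24, all still past 2-fold. With the GC trend removed, Cxcr4 passed 2-fold at -1.05, which gave 2 receptors at least 2-fold lower, and Ccr2 went to 0.89, under 2-fold. Scaling to equal totals, which moved the median of all genes to 0.15, moved Cxcr4 to -0.76, Ccr4 to 0.23 and Ccr8 to 0.87, and Ccr4 went to 0.18 with scaling to Actb.

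At a 1.5-fold threshold 5 receptors were higher and 2 lower, and at 3-fold 1 was higher and 0 lower. The share of all genes past 1.5-fold or 3-fold was not computed, nor was the share past 2-fold under the other settings. Counts at these thresholds and settings, for the receptors and for the related genes that follow, therefore have no background beside them. Of the 55 related genes (other and atypical receptors, ligands and signalling genes), 4 were higher and 6 lower at 2-fold, with 8 and 11 at 1.5-fold and 1 and 3 at 3-fold. The counts were 1 and 3 when a log2 value of at least 4 in one sample was asked, and 7 were higher with equal totals. Without a pseudocount 1 was higher, because Ccr3, Xcr1 and Ccl1, at 0 in the library labelled WT, then have no ratio and drop out. With the coding length, 5 of 9 receptors had the same rank per length in each library. Depth limits Ccr2 and Cx3cr1, with at most 12 reads, while the 5 receptors with over 100 reads in both libraries are limited by the lack of replicates.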
